A study of Mus musculus with 8 samples.

Results

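The genes described here are 35 named members of the unfolded protein response and the integrated stress response, 2 linked programs that act on the folding of secreted proteins and on translation. They were taken by symbol from a gene count table of mouse neutrophils with 18187 symbols. All 35 symbols were found, all had 10 or more counts in at least 3 of the 8 libraries, and all were among the 13278 genes that passed the low-count filter and were tested. The study compared neutrophils linked by the labels to B16 tumors, a transplantable mouse melanoma, after treatment labelled aOX40 (3 libraries, replicates 1 to 3) or IgG (5 libraries, replicates 2 to 6). OX40 is a receptor through which activated T cells receive costimulation. The sources used here do not give the strain, age, dose, time after treatment or the way the neutrophils were isolated. Nor do the labels tie libraries to single animals, so p-values reflect only how these libraries vary, and that variation may be technical.

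The endoplasmic reticulum (ER) folds secreted and membrane proteins, and its sensors respond when unfolded proteins build up. IRE1, encoded by Ern1, splices the messenger RNA of Xbp1 into one that encodes an active transcription factor, ATF6 is cut free from the membrane to become one, and PERK, encoded by Eif2ak3, phosphorylates the translation factor eIF2 alpha. Phosphorylated eIF2 alpha slows most translation while raising that of ATF4, and other kinases feed into the same step from amino acid shortage, heme shortage or viral RNA, which is why the shared branch is called the integrated stress response. In tumor-bearing hosts, ER stress signalling is known from suppressive neutrophils. In bulk libraries such as these, fewer cells of a type and less RNA per cell cannot be told apart, and splicing of Xbp1 or phosphorylation cannot be read from gene counts.

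The members did not move as a block. Ddit3, which encodes the stress-induced transcription factor CHOP, and Dnajb9, an ER co-chaperone, fell after aOX40, while Pdia3, an ER oxidoreductase for glycoproteins, rose. The other 32 members did not pass an adjusted p of 0.05 (edgeR's quasi-likelihood test, Benjamini-Hochberg adjustment over all genes tested). The 3 calls were 8.57% of the members, beside 5.65% of all genes tested, with 2.64% called higher and 3.00% called lower. Of the 35 fold changes, 18 were above 0 and 17 below, with a median log2 fold change of 0.15 beside 0.05 over all genes. An unadjusted p below 0.05 was reached by 12 members, beside 24.8% of all genes. In 11 members (31.4%) the libraries of the 2 groups did not overlap, beside 16% of all genes. These were 7 with all aOX40 libraries higher (background 8.22%), namely Dnajb11, Creld2, Calr, Canx, Pdia3, Pdia6 and Herpud1, and 4 with all aOX40 libraries lower (background 7.75%), namely Ddit3, Dnajb9, Atf4 and Xbp1. The higher set held chaperones, oxidoreductases and a degradation gene of the ER, and the lower set held 3 transcription factors and 1 co-chaperone. Both sets depend on how libraries are scaled, and the counts and backgrounds above hold for the scaling of the main fit. By total counts alone, the groups of Atf4 and Xbp1 overlap, and those of Ddit3 and Dnajb9 do not. By total counts alone P4hb, Edem1, Asns and, by a narrow margin, Eif2s1 join the higher set. As background, Dnajb9 is a recognized target of spliced Xbp1.

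**Figure D1:**
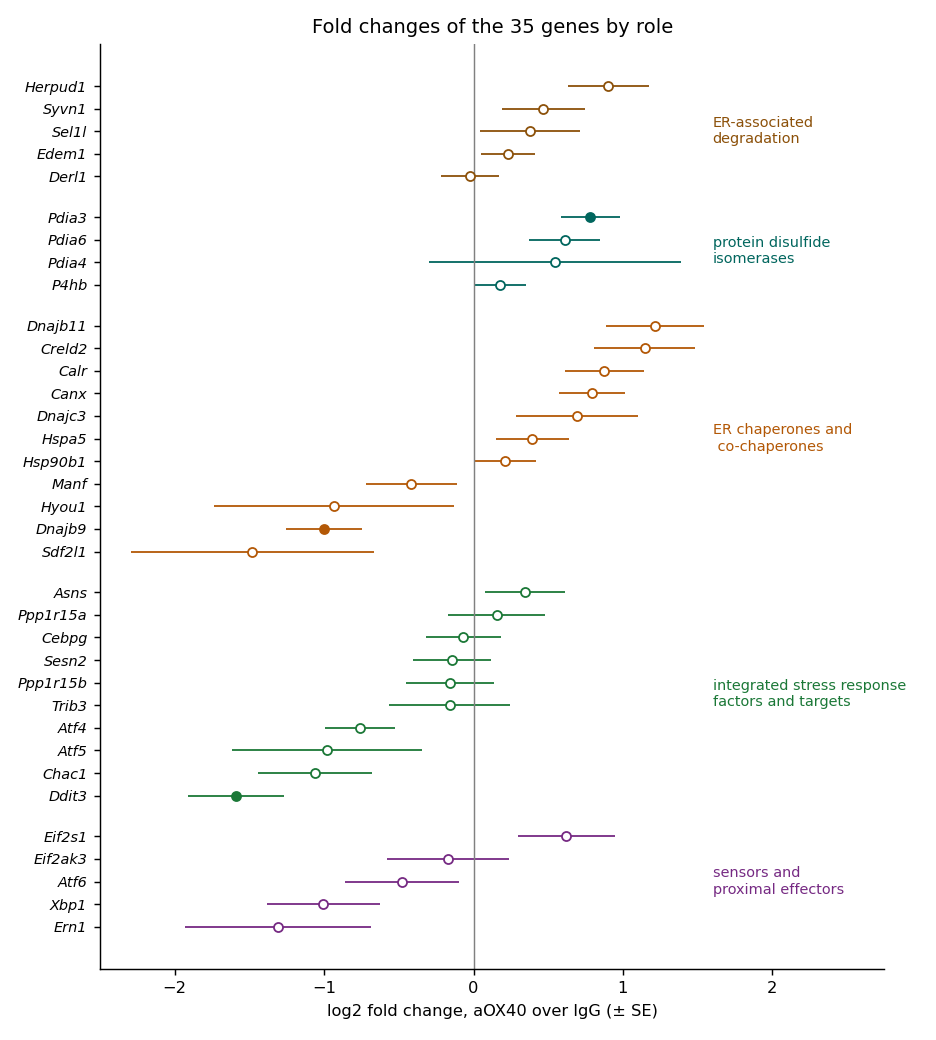
Log2 fold change, aOX40 over IgG, with its standard error, for the 35 genes grouped by role; filled points passed an adjusted p of 0.05 (edgeR) and open points did not. The filled points are Ddit3 at -1.59, Dnajb9 at -1.0 and Pdia3 at 0.78. In this fit the 4 disulfide isomerases lie above 0 and 8 of 10 integrated stress response genes below it. Several of these signs depend on processing: Cebpg, Trib3, Sesn2 and Ppp1r15b turned positive with total counts alone. P4hb turned negative with the length and GC corrections.

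The members were taken by symbol, not by promoter sequence, but the ER stress response element was described from promoters of such chaperone genes, so its share among them is a description. The ER stress response element, read by ATF6 and XBP1 together with the CCAAT-binding factor NF-Y, reads CCAAT, then 9 bases of any kind, then CCACG. It was searched on both strands from 250 bases before to 50 bases after each RefSeq start site (GRCm38.p6). Of 30 members with a promoter in the RefSeq table, 8 held an exact match (26.7%), beside 19 of 10590 genes of the count table (0.179%) and 39 of all 32851 promoter windows (0.119%). The 9 matches are printed because they mark the chaperone and degradation genes whose values follow. Each line is 59 bases, 5′ to 3′ along the strand on which the element reads CCAAT first, and capitals mark the fixed letters of the element.
Hspa5: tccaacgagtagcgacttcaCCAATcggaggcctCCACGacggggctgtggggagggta
Hsp90b1, distal: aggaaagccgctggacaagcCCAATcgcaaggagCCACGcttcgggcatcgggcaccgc
Hsp90b1, proximal: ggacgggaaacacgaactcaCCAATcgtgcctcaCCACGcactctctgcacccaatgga
Calr: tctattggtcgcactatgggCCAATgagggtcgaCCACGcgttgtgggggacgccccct
Canx: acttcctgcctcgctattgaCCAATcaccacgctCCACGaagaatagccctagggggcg
Creld2: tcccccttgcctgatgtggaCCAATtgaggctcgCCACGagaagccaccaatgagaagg
Dnajc3: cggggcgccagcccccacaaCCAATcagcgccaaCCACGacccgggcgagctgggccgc
Pdia6: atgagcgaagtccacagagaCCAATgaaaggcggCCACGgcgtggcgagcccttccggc
Syvn1: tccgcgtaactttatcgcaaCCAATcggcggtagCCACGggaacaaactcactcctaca

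These stretches lie at chr2:34772005-34772063 (plus strand) for Hspa5, at chr10:86705618-86705676 (minus strand) and chr10:86705513-86705571 (plus strand) for Hsp90b1, and at chr8:84847055-84847113 (plus strand) for Calr. Those of Canx and Creld2 lie on the minus strand at chr11:50325780-50325838 and chr15:88819500-88819558. Those of Dnajc3, Pdia6 and Syvn1 lie on the plus strand at chr14:118937807-118937865, chr12:17266471-17266529 and chr19:6046512-6046570. The match began between positions -212 and -44 relative to the start site, and in Calr, Creld2 and the proximal site of Hsp90b1 it was on the strand opposite to the gene. All 8 members with a match had a log2 fold change above 0, with a median of 0.65, although none of them passed the test. With the length correction Hsp90b1 turned to -0.060. Of all tested genes with a promoter, 54.4% were above 0, with a median of 0.10. Among the 22 members with a promoter and no match, 10 were above 0, with a median of -0.11. Pdia3, Dnajb11 and Herpud1, higher without overlap, are among these 22. Of 5 other tested genes of the table with the element, 1 was above 0 and 4 were below. Of these, Calr4, a relative of calreticulin, rose (log2 fold change 3.57, SE 0.82, adjusted p = 0.0307). Hnrnpa3, an RNA-binding protein gene, fell (-1.52, SE 0.33, adjusted p = 0.0276). The level of Calr4 was not examined. It may have passed the low-count filter through the aOX40 group alone, so its call is not read as a result. A match describes the letters of the window and does not show that a factor binds there. The shorter core of the unfolded protein response element, TGACGTGG, was in the window of 0 of 30 members and in 0.973% of table genes.

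**Figure D2:**
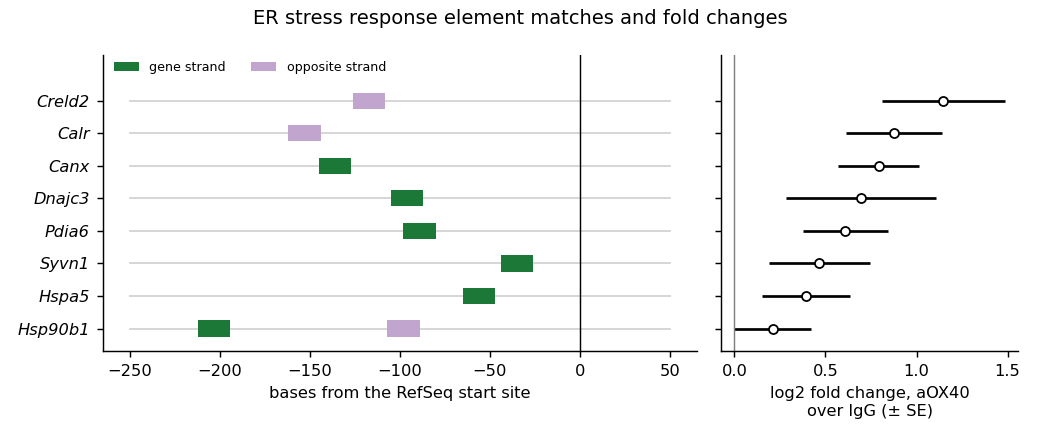
Left, position of each exact ER stress response element match in bases from the RefSeq start site, coloured by strand, for the 8 members that hold one; right, their log2 fold change, aOX40 over IgG, with its standard error (open points, none past an adjusted p of 0.05). The fold changes run from 0.21 in Hsp90b1 to 1.15 in Creld2, all above 0 in this fit. With the length correction Hsp90b1 turned to -0.060.

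The core of the amino acid response element bound by ATF4 with its partners, TGATGNAA, was in the windows of Asns, Chac1, Herpud1 and Trib3, which is 13.3% of the 30 members beside 2.97% of table genes. These matches are shown with 10 bases on each side, with the fixed letters in capitals, because these genes are known ATF4 targets and did not share a direction here.
Asns: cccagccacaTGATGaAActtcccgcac
Chac1: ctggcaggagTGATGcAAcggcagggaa
Herpud1: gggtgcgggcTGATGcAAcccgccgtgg
Trib3: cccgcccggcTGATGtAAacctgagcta

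They lie at chr6:7693215-7693242 (minus strand), chr2:119351039-119351066 (minus strand), chr8:94386307-94386334 (minus strand) and chr2:152344029-152344056 (plus strand). The log2 fold change was 0.34 in Asns, -1.06 in Chac1, 0.90 in Herpud1 and -0.16 in Trib3, and none passed the test.

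Among the sensors and their first effectors, 0 of 5 genes passed the test. Xbp1 had the highest level of the 5 per kilobase of exon. In CPM (counts of a gene relative to the scaled total of its library) it stood at 744, 626 and 371 CPM in aOX40 replicates 1 to 3 and 1823, 777, 1697, 747 and 778 CPM in IgG replicates 2 to 6. Every aOX40 library was below every IgG library, but the highest aOX40 value and the lowest IgG value lay next to each other, and IgG replicates 2 and 4 stood well above the other three. The log2 fold change of Xbp1 was -1.0 (SE 0.38, adjusted p = 0.135). Ern1 was low, at 0.336, 2.52 and 4.52 CPM in aOX40 and 2.68 to 10.3 CPM in IgG, with overlap (-1.31 on the log2 scale, SE 0.62, adjusted p = 0.223). Atf6 was at 21.8 ± 7.33 CPM (SD, n = 3) against 30.4 ± 13.4 CPM (SD, n = 5) and Eif2ak3 at 9.52 ± 4.50 against 10.7 ± 4.26 CPM. Eif2s1, which encodes eIF2 alpha itself, was at 19.7 ± 5.26 against 12.8 ± 4.43 CPM (log2 fold change 0.62, SE 0.32, adjusted p = 0.266).

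In the integrated stress response group, 1 of 10 genes fell and 0 rose. Ddit3, at chr10:127290774-127296288 on the plus strand (mm10, GENCODE M21), stood at 238, 143 and 145 CPM in aOX40 and at 823, 334, 605, 443 and 436 CPM in IgG. The lowest IgG library was above the highest aOX40 library. The log2 fold change was -1.59 (SE 0.32, adjusted p = 0.0238), a 3.01-fold lower level. The call was lost without aOX40 replicate 2 (adjusted p = 0.134) and without aOX40 replicate 3 (0.0947), and it held without any other single library, at 0.0263 to 0.041. The end of Ddit3 overlaps the end of Mars1 on the other strand, but Mars1 had 85 to 1816 counts in a library against 11634 to 40122 for Ddit3.

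Atf4, the transcription factor whose translation rises when eIF2 alpha is phosphorylated, was at 175, 166 and 185 CPM in aOX40 and at 434, 263, 282, 292 and 218 CPM in IgG. At this scaling the groups did not overlap, and the aOX40 libraries lay close together. The log2 fold change of -0.76 (SE 0.23) did not pass, at an adjusted p of 0.0788. It was called in 2 of 22 alternatives, DESeq2 (adjusted p = 0.0182) and limma voom with quality weights (0.0458), and the highest adjusted p of the other alternatives was 0.272, without aOX40 replicate 2. Chac1, a glutathione-degrading enzyme, was at 15.2, 9.47 and 7.95 CPM in aOX40 and at 11.4, 15.98, 26.5, 25.2 and 33.3 CPM in IgG, with overlap (adjusted p = 0.120). Atf5, a factor related to Atf4, was near 1 CPM, and Nup62, which overlaps it on the other strand, had more counts (436 to 1947 against 16 to 120), so its value is uncertain.

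Ppp1r15a encodes GADD34, the inducible subunit that lets a phosphatase remove the phosphate from eIF2 alpha, and it had the highest level per kilobase of exon of all 35 members in both groups. It was at 766, 1042 and 2284 CPM in aOX40 and at 1318, 1278, 1341, 816 and 1377 CPM in IgG. The aOX40 libraries spanned the whole IgG range, with replicate 3 far above and replicate 1 below it, and the log2 fold change was 0.15 (SE 0.33, adjusted p = 0.816). Its sign turned without aOX40 replicate 3 (-0.43). Its constitutive relative Ppp1r15b was at 72.7 ± 23.1 against 81.0 ± 24.3 CPM. Of the remaining targets, the pseudokinase gene Trib3 (log2 fold change -0.16), Cebpg, a dimer partner of ATF4 (-0.07), the stress sensor gene Sesn2 (-0.14) and the asparagine synthetase gene Asns (0.34) had adjusted p-values from 0.464 to 0.899.

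**Figure D3:**
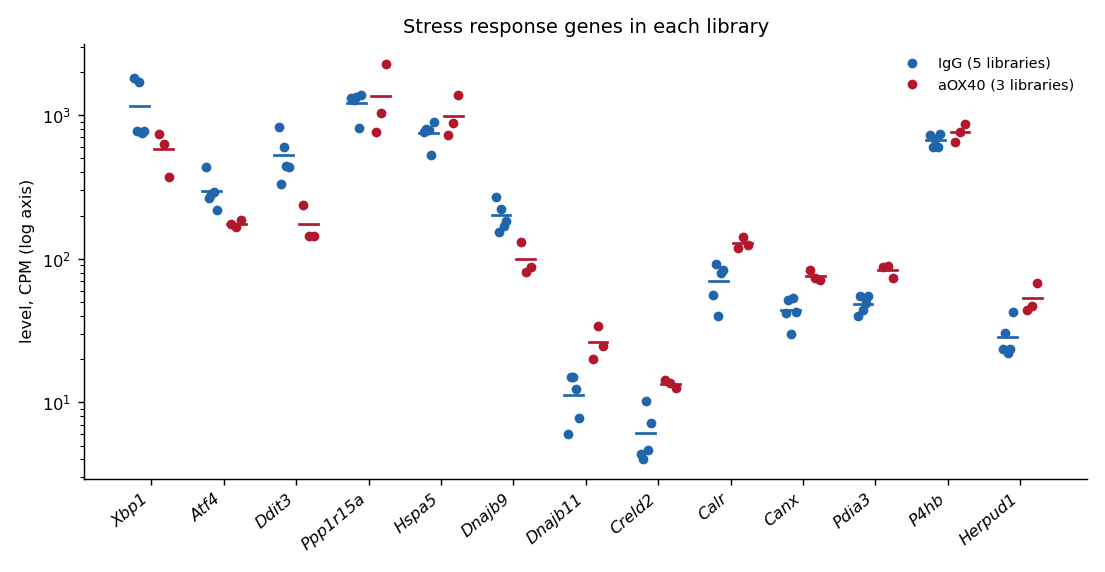
Level in CPM on a log axis of 13 of the genes in each library, with IgG (5 libraries) in blue, aOX40 (3 libraries) in red and lines at the group means. Ddit3, Atf4, Dnajb9 and Xbp1 have all red points below all blue points, Dnajb11, Creld2, Calr, Canx, Pdia3 and Herpud1 have them above, and Ppp1r15a, Hspa5 and P4hb overlap.

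The ER chaperones and co-chaperones split by gene: of 11, 1 fell, 0 rose, 7 fold changes were above 0 and 4 below. Hspa5, which encodes BiP, the main ER chaperone and the one that holds the sensors inactive, was at 727, 877 and 1374 CPM in aOX40 and at 760, 802, 788, 532 and 893 CPM in IgG. The groups overlapped, with aOX40 replicate 3 the highest of all libraries and IgG replicate 5 the lowest, and the log2 fold change was 0.39 (SE 0.24, adjusted p = 0.344). Hsp90b1, the ER member of the HSP90 family, was at 61.9 ± 8.90 against 53.6 ± 8.36 CPM (adjusted p = 0.580).

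Dnajb9 encodes ERdj4, a co-chaperone of BiP that also holds IRE1 in check, at chr12:44205559-44210326 (mm10). It was at 131, 81.3 and 87.9 CPM in aOX40 and at 271, 153, 224, 170 and 185 CPM in IgG. Every aOX40 library was below every IgG library. It fell by 1.00 on the log2 scale (SE 0.26, adjusted p = 0.0467), a 2.00-fold lower level. It was called in 10 of 22 alternatives, beside 19 for Ddit3. The call sat near the threshold: with 1 library left out it held only without aOX40 replicate 1 (0.0447), and the other 7 values ran from 0.0515 to 0.218, without aOX40 replicate 2.

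Dnajb11 encodes ERdj3, another J-domain partner of BiP, and it lay on the other side of 0 from Dnajb9. It was at 19.9, 33.8 and 24.7 CPM in aOX40 and at 5.99, 15.1, 15.1, 12.5 and 7.79 CPM in IgG. The groups did not overlap, and the log2 fold change of 1.21 (SE 0.33) narrowly missed the threshold (adjusted p = 0.0552). Creld2, a secreted ER stress gene, was at 14.4, 13.6 and 12.5 CPM against 4.35, 4.03, 10.2, 4.63 and 7.21 CPM (log2 fold change 1.15, SE 0.34, adjusted p = 0.0699). Its aOX40 libraries were close together and IgG replicate 4 was the nearest to them. With 1 library left out Creld2 was called only without that library (adjusted p = 0.0432), whose removal by itself widens the gap, and the other 7 values ran from 0.0947 to 0.219.

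Calr and Canx encode calreticulin and calnexin, lectin chaperones that bind a trimmed sugar on glycoproteins and work with the product of Pdia3, and both had higher levels in every aOX40 library than in any IgG library. Calr was at 120, 141 and 125 CPM in aOX40 and at 55.7, 91.7, 39.8, 79.5 and 84.0 CPM in IgG (0.87 on the log2 scale, SE 0.26, adjusted p = 0.0743). Canx was at 83.1, 73.7 and 71.3 CPM against 41.9, 51.4, 29.9, 53.5 and 42.5 CPM (0.79, SE 0.22, adjusted p = 0.0605). Calr and Canx were not called. DESeq2, limma voom with quality weights, scaling by total counts alone and the restriction to genes with 10 counts in every library each called Calr, Canx, Dnajb11 and Herpud1 higher, and no other of the 22 alternatives called Calr, Canx or Dnajb11.

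Levels of the remaining co-chaperones did not separate the groups. Dnajc3, which encodes an inhibitor of eIF2 alpha kinases, was at 12.1 ± 5.04 against 7.44 ± 3.08 CPM. Manf, a secreted neurotrophic ER factor, was at 16.9 ± 6.12 against 22.5 ± 5.46 CPM. The nucleotide exchange factor gene Hyou1 (2.69 ± 2.86 against 5.16 ± 3.35 CPM) and Sdf2l1 (0.789 ± 0.294 against 2.21 ± 1.58 CPM), part of the BiP chaperone complex, were low and scattered, so no order is read from them.

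Among the protein disulfide isomerases, which form and reshuffle disulfide bonds, 1 of 4 rose and 0 fell. Pdia3, which encodes ERp57, lies at chr2:121413775-121438687 (mm10). It was at 87.4, 89.6 and 73.2 CPM in aOX40 and at 39.6, 54.9, 43.7, 49.2 and 55.1 CPM in IgG, without overlap and with a small spread in both groups. It rose by 0.78 on the log2 scale (SE 0.20, adjusted p = 0.046), a 1.72-fold higher level. It was called in 8 of 22 alternatives. The call was lost whichever single library was left out, with adjusted p-values from 0.0612 without IgG replicate 6 to 0.2 without aOX40 replicate 2. Pdia3 overlaps Catsper2 on the other strand, which had 0 to 14 counts in a library. Pdia6 was at 49.9, 47.2 and 41.0 CPM against 28.2, 31.5, 37.7, 20.2 and 33.4 CPM, also without overlap (log2 fold change 0.61, SE 0.24, adjusted p = 0.142). P4hb, the founding isomerase, was the most abundant of the 4 per kilobase of exon, at 759 ± 106 against 671 ± 64.6 CPM (0.18, SE 0.17, adjusted p = 0.572). Its groups overlapped at this scaling, but not by total counts alone. Pdia4 was listed at 0 in IgG replicates 2 and 5 and at up to 5.45 CPM in IgG replicate 6, against 2.17 to 3.27 CPM in aOX40.

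The genes of ER-associated degradation, which moves misfolded proteins out to the proteasome, had 0 of 5 members called. Herpud1, a scaffold of the ubiquitin ligase complex, was at 44.2, 47.0 and 67.6 CPM in aOX40 and at 23.4, 30.3, 21.9, 23.5 and 42.5 CPM in IgG. IgG replicate 6 came close to the aOX40 libraries without reaching them, and the log2 fold change was 0.90 (SE 0.27, adjusted p = 0.0731). With 1 library left out Herpud1 was called only without that library (adjusted p = 0.0471), whose removal by itself widens the gap, and the other 7 values ran from 0.0858 to 0.253. Syvn1, the ligase itself, was at 26.8 ± 9.0 against 19.4 ± 3.56 CPM, and its partner Sel1l at 17.9 ± 7.84 against 13.9 ± 3.02 CPM. The mannosidase-like gene Edem1 (146 ± 11.5 against 124 ± 13.7 CPM) and the channel gene Derl1 (100.3 ± 10.04 against 102 ± 15.0 CPM) varied little between libraries.

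Ratios of counts between 2 genes of the same library do not depend on how libraries are scaled, and they are given as a description, since the pairs were chosen with the fold changes known. For 1 count of Hspa5 there were 0.327, 0.164 and 0.106 counts of Ddit3 in aOX40 and 1.08, 0.417, 0.768, 0.832 and 0.488 in IgG, without overlap. Ddit3 was also lower relative to Atf4, at 0.784 to 1.36 against 1.27 to 2.15 counts per Atf4 count, but there aOX40 replicate 1 lay above IgG replicate 3. Ddit3 per Ppp1r15a overlapped in the same way, at 0.0636 to 0.310 against 0.262 to 0.6246. Xbp1 per Hspa5 also overlapped, at 0.270 to 1.024 against 0.871 to 2.40. Atf4 per Hspa5 did not, but aOX40 replicate 1 at 0.241 and IgG replicate 6 at 0.244 lay next to each other. Dnajb9 per Dnajb11, the pair of BiP partners, was 2.40 to 6.57 in aOX40 and 10.2 to 45.2 in IgG. Calr per Ddit3 was 0.503 to 0.986 in aOX40 and 0.0657 to 0.274 in IgG. Pdia3 per P4hb overlapped, at 0.0847 to 0.134 against 0.0547 to 0.0912. Dnajb9 per Hspa5 was 0.0640 to 0.180 in aOX40 and 0.191 to 0.356 in IgG, with aOX40 replicate 1 and IgG replicate 3 next to each other. Relative to Hspa5, both Ddit3 and Dnajb9 were thus lower in each aOX40 library than in any IgG library.

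**Figure D4:**
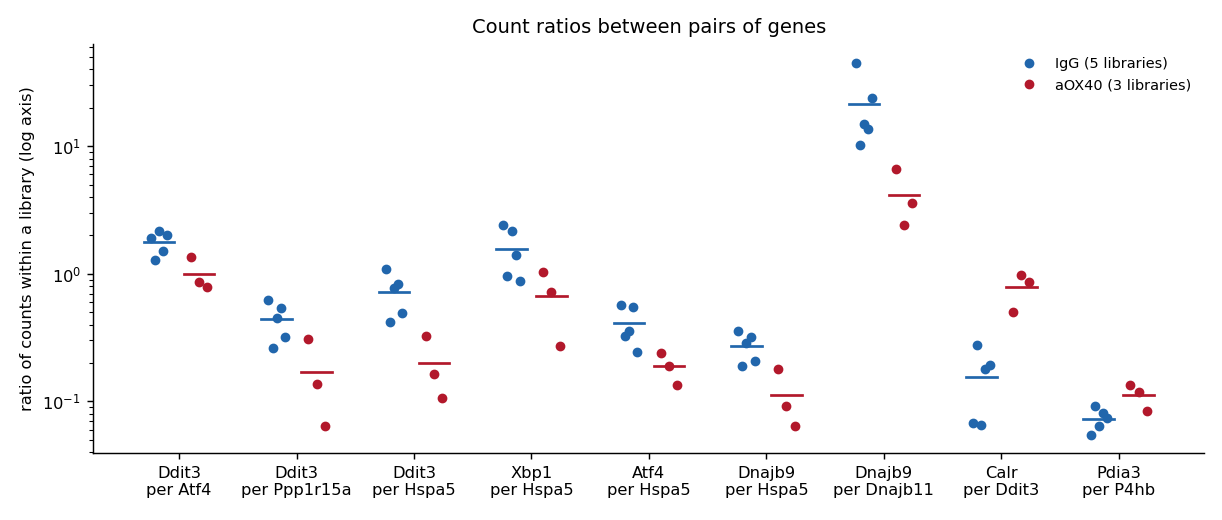
Ratio of counts between pairs of genes within each library on a log axis, with IgG (5 libraries) in blue, aOX40 (3 libraries) in red and lines at the group means. Ddit3 per Hspa5, Dnajb9 per Hspa5, Dnajb9 per Dnajb11 and Atf4 per Hspa5 are lower in every aOX40 library than in any IgG library, Calr per Ddit3 is higher, and Ddit3 per Atf4, Ddit3 per Ppp1r15a, Xbp1 per Hspa5 and Pdia3 per P4hb overlap.

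Other genes of the pathway were taken as 9 lists, with 108 genes tested, of which 5 rose and 2 fell. The share called was 6.48%, near the 5.65% of all genes tested. In lists this short, single calls are not read as a result about the list. The median log2 fold change of the 108 genes was 0.30, and 70 of 108 were above 0 (64.8%), beside 52.2% of all genes tested. In the list of other degradation genes 2 of 18 rose and 1 fell. Vcp, the ATPase that pulls proteins from the ER membrane, was at 19.9, 32.5 and 31.6 CPM in aOX40 and at 7.47, 7.66, 10.98, 6.93 and 8.48 CPM in IgG (1.76 on the log2 scale, SE 0.27, adjusted p = 0.011). Its cofactor gene Nploc4 rose by 1.19, and Ubxn4, which recruits the ATPase to the ER, fell by 0.91. Of 22 alternatives, 19 called Vcp, 10 called Nploc4 and 12 called Ubxn4. The groups did not overlap in any of these 3 genes, which are 16.7% of the list, beside 16% of all genes.

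Among the other kinases and the eIF2B exchange factor, 1 of 10 rose: Eif2ak1, the kinase that responds to heme shortage, at 26.0 ± 5.33 against 12.9 ± 2.17 CPM (log2 fold change 1.00, SE 0.25, adjusted p = 0.0445). Only 8 of 22 alternatives called Eif2ak1. Of 16 other ATF4 targets 1 rose and 1 fell. Atf3, an early stress factor, was at 453, 493 and 493 CPM in aOX40 and at 1738, 931, 2001, 895 and 866 CPM in IgG (-1.42, SE 0.32, adjusted p = 0.0326). Atf3 was called in 16 of 22 alternatives. Psph, an enzyme of serine synthesis, was called higher between low levels, at 1.62 to 1.86 CPM against 0 to 0.620 CPM (adjusted p = 0.0379). With 10 or more counts in only 4 libraries, it passed the low-count filter through the aOX40 group, where it is high. Its call is therefore not read as a result. The amino acid transporter genes Slc3a2 (-0.78, adjusted p = 0.0509) and Slc7a11 (0.83, adjusted p = 0.087), whose products pair in 1 transporter, had opposite signs and did not pass. Of 11 aminoacyl-tRNA synthetases, which ATF4 also induces, 0 passed edgeR's test (2 at an unadjusted p below 0.05), with 9 above 0.

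For N-glycan transfer and glycoprotein folding 12 of 13 genes were above 0, with a median of 0.99, and 1 rose. That gene, Prkcsh, a subunit of the glucosidase that trims glycans for the calnexin cycle, was low, at 1.22, 4.56 and 4.94 CPM against 0.0163 to 0.964 CPM (adjusted p = 0.0375). Only 8 of the 21 alternatives that tested Prkcsh called it. Rpn1 (1.21) and Ddost (1.17), subunits of the oligosaccharyltransferase, had groups without overlap and did not pass (adjusted p = 0.0701 and 0.0808). The translocon list (16 genes, median 0.00), oxidative folding (6, median 0.11), other transducers (10, median -0.23) and mitochondrial chaperones and proteases (8, median 0.43) had 0 calls by edgeR, with 4, 3, 1 and 2 genes at an unadjusted p below 0.05. Without aOX40 replicate 2 edgeR called 0 of 14111 genes, and so none of these pathway genes.

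**Figure D5:**
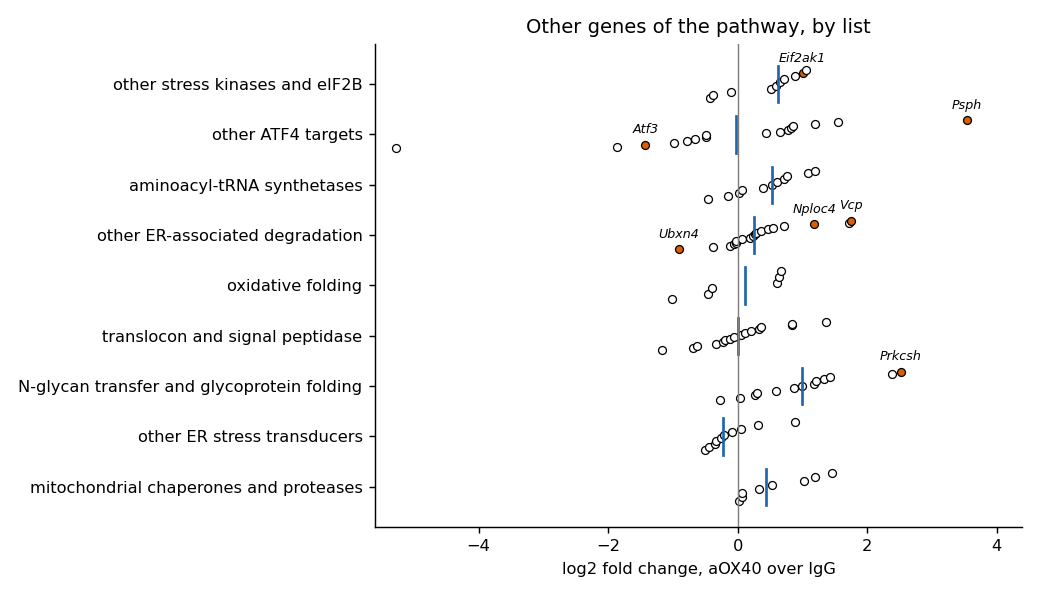
Log2 fold change, aOX40 over IgG, of the 108 tested genes of 9 other pathway lists, with each point a gene, blue bars at list medians and filled, named points past an adjusted p of 0.05 (edgeR). Vcp, Nploc4, Eif2ak1, Psph and Prkcsh lie above 0 and Atf3 and Ubxn4 below. Psph passed the low-count filter through the aOX40 libraries, where it is high.

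Several properties of the libraries moved with treatment. Total counts ran from 69.6 to 73.5 M in aOX40 and from 52.7 to 63.2 M in IgG, and mitochondrial messenger RNA took 0.0998% to 0.152% against 0.0510% to 0.0811% of counts (exact two-sided permutation p = 0.0357 for each, the smallest that 3 against 5 libraries allow). Genes with at least 10 counts numbered 12715 to 13339 in aOX40 and 11382 to 12621 in IgG (same permutation test, p = 0.0357), which bears on genes at low levels. The TMM scaling factors were also apart, at 1.07 to 1.27 in aOX40 and 0.874 to 0.984 in IgG. Scaling by total counts alone in place of TMM factors moved the all-gene median by 0.30 (log2). It left Ddit3 lower, gave 7 members higher (Calr, Canx, Creld2, Dnajb11, Herpud1, Pdia3 and Pdia6), did not call Dnajb9 (adjusted p = 0.0745), and turned the sign of Eif2ak3, Cebpg, Trib3, Sesn2, Ppp1r15b and Derl1. A correction for transcript length moved the median of the members to -0.15 and called Ddit3 and Dnajb9 lower and no member higher. Over all genes the share of calls that were higher was 46.8%, against 78.0% with total counts, 32.2% with the length correction, 36.2% with a GC correction and 36.6% in DESeq2. Leaving out aOX40 replicate 2 left 0 of 14111 genes called by edgeR (2230 had an unadjusted p below 0.05), and leaving out aOX40 replicate 3 left 59 genes and 0 members.

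Neutrophil markers, all 10 of 10 in the table, summed to 22781 to 28271 CPM in aOX40 and 20541 to 29649 CPM in IgG. Plasma cells hold a large ER, and the 4 of 10 B and plasma cell markers in the table, led by Ighm, summed to 65.1 to 77.7 against 32.6 to 251 CPM. Monocyte and macrophage markers (8 of 10) summed to 548 to 787 against 376 to 726 CPM, T and NK cell markers (7 of 10) to 1.40 to 17.1 against 1.35 to 4.82 CPM, and dendritic cell markers (4 of 7) to 0.323 to 1.53 against 0.186 to 6.11 CPM. Melanoma markers (7 of 7, led by Gpnmb) summed to 35.5 to 81.4 against 63.4 to 383 CPM, and fibroblast and endothelial markers (4 of 8) to 4.45 to 8.45 against 8.92 to 59.9 CPM, without overlap. Single markers were called in 3 lists (edgeR), and 0 in each other list. They were 1 of 10 neutrophil, 1 of 8 monocyte and macrophage, and 1 of 4 fibroblast and endothelial markers in the table. Of all genes tested 5.65% were called, and in lists this short single calls are not read as a result about a cell type. The neutrophil gelatinase gene Mmp9 was higher after aOX40, at 471 to 1254 against 274 to 582 CPM (adjusted p = 0.0467), as was the macrophage marker Adgre1, at 14.5 to 26.8 against 2.13 to 8.55 CPM (0.0248). The collagen gene Col1a1 was lower, at 1.22 to 2.21 against 3.42 to 32.4 CPM (0.0414). No marker in the table was at 0 in every library. The part of these cells, of depth and of RNA quality in the results above was not tested.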

How the data were processed

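Per the labels, RNA of neutrophils was sequenced in 8 libraries. The authors' deposited values are estimated counts per gene symbol, many with fractions, not scaled between libraries. The submitters' processing notes name STAR 2.6.0, Subread, featureCounts 1.5.1 and mm10; the sources used here do not give settings, strand or annotation. Counts were rounded, filtered with filterByExpr by group and scaled by TMM. The test was edgeR's quasi-likelihood F test (its newer, bias-adjusted method; edgeR 4.0.16 in R 4.3.3) on a model of group alone, with Benjamini-Hochberg adjustment over 13278 genes at 0.05. Standard errors came from the F statistic. CPM used TMM factors. The 22 alternatives included DESeq2 1.42.0, limma 3.58.1 voom, other scalings and filters, length and GC corrections, each library left out and a replicate block; edgeR's older method was added after the data were seen. The procedure was tested on simulated data. Positions came from GENCODE M21 (mm10; 17639 of 18187 symbols placed), promoters from RefSeq (GRCm38.p6; 30 of 35 members). Members and lists were chosen with earlier results of these data known. The genes given for every library are those called, 7 fixed ones (Ddit3, Atf4, Xbp1, Hspa5, Ppp1r15a, Dnajb9 and Pdia3), and others whose groups did not overlap or whose values are discussed, the last chosen after their values were seen. Of each other pathway list, called genes and up to 3 with the smallest adjusted p were eligible, and not all are described; Slc7a11 was chosen after its value was seen. A gene of 1 list is not reported here and is left out of that list's counts. Total counts were 52.7 to 73.5 M per library.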

Additional observations from a re-analysis of the deposited data

Results flagged for a closer look

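In 35 groups of 5 IgG libraries, 1 per member, 2 had a library that stood apart from the others by Dixon's gap ratio, and chance flags about 1 group in 20. For Ppp1r15a the ratio was 0.823, with IgG replicate 5 at 816 CPM below the other 4 libraries. For Syvn1 it was 0.714, with IgG replicate 3 at 25.4 CPM above the others.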

How the results depend on the processing

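Of the 35 members, 25 kept their sign in each of the 22 alternatives that tested them (Hyou1, Sdf2l1 and Pdia4 were not tested with 10 counts in every library) and 10 changed it in at least 1, all 10 uncalled in every fit in which the sign turned. The number of members called went from 3 to 8 with total counts alone, 7 with 10 counts in every library, 9 with DESeq2, 9 with limma voom and quality weights, 1 without a filter on low counts, 1 with edgeR's older method (chosen after seeing the data) and 1 with a GC correction. Calls over all genes went from 750 to 452 without a filter, 1629 with DESeq2, 1305 with quality weights and 320 with the older method. The median log2 fold change of the members, 0.15, became 0.45 with total counts, 0.023 with limma voom, -0.15 with the length correction and -0.068 with the GC correction. With 1 library left out, 0 to 589 genes and 0 to 2 members were called and the median ran from 0.040 to 0.20. Replicate numbers 2 and 3 occur in both groups, and their libraries deviated together little (correlations 0.0224 and 0.0469). The labels do not say what a shared number marks, and these correlations cannot decide it. With a replicate block edgeR's test called 0 genes and 0 members (2594 genes had an unadjusted p below 0.05), with a median of 0.0425, and the sign turned in Ppp1r15b (0.19) and Sel1l (-0.028). In that fit only the libraries numbered 2 and 3 inform the difference between the groups, so it has little power. Signs also turned with total counts in Eif2ak3 (0.11), Cebpg (0.24), Trib3 (0.15), Sesn2 (0.17), Ppp1r15b (0.17) and Derl1 (0.27), with voom in Trib3 (0.023, or 0.10 with quality weights), with the length correction in Ppp1r15a (-0.15), Hsp90b1 (-0.060) and P4hb (-0.11), with the GC correction in Ppp1r15a (-0.068) and P4hb (-0.0065), and with 10 counts in every library in Derl1 (0.0023). With 1 library left out, 7 spanned 0: Eif2ak3 (-0.52 to 0.16), Cebpg (-0.23 to 0.12), Trib3 (-0.37 to 0.10), Sesn2 (-0.37 to 0.040), Ppp1r15a (-0.43 to 0.44), Ppp1r15b (-0.38 to 0.0735) and Derl1 (-0.10 to 0.040). The cause of these moves was not tested. Leaving out a library or filtering genes more strictly also lowers their number, and these were not separated. Hyou1, at 0.283 to 9.54 CPM within IgG, Sdf2l1 and Pdia4 varied widely between libraries of 1 group, which limits what can be read from them.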
